A study of Mus musculus with 20 samples.

Results

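Collagen chains are the gene products described here, taken as every gene on the array whose symbol has the form Col, a number, the letter a and a number. The array carried 44 such genes, read by 91 probes, of which 40 were called well above background by the scanner software on at least 6 of the 20 arrays and were tested among 25619 gene names. They were 10 of 11 fibrillar chains (types 1, 2, 3, 5, 11, 24 and 27), all 6 basement membrane chains (type 4) and 24 of 27 other chains. The 4 that were not tested were Col24a1, a fibrillar chain, and Col9a1, Col9a3 and Col10a1, chains best known from cartilage.

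A collagen molecule is a triple helix of chains in which glycine returns at a fixed step. Fibrillar collagens assemble into the fibrils that give tissue its tensile strength, with type I and type III as the main ones of soft tissue and type V as a minor one. Type IV collagen forms the sheet-like network of basement membranes, which surround each adipocyte and each capillary, and type VI collagen forms beaded filaments that are abundant around adipocytes. The FACIT collagens, among them types XII, XIV and XVI, sit on the surface of fibrils or beside basement membranes.

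RNA came from visceral adipose tissue (VAT) of the epididymal area of male C57bl/6J mice of the F3 generation of 2 lineages, 1 mouse per array. The 6 Ref mice and the 6 HFoleic mice belonged to the control lineage, bred on feed with high-oleic sunflower oil, and the 8 HFepa mice to the omega 3 lineage, bred on feed with a fish oil rich in eicosapentaenoic acid (EPA). During the dietary challenge the Ref mice ate a low-fat diet, whereas the HFoleic and HFepa mice ate the same high-fat, high-sucrose diet. No omega 3 group on the low-fat diet was among the arrays, and how many litters the mice came from was not given in the sources used here, so the p-values measure the spread between these mice. The question was how VAT of each lineage differed from that of the Ref mice after the obesogenic diet. HFepa vs. Ref differs in both diet and lineage, which cannot be told apart there. Both comparisons with the Ref group share its 6 arrays.

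Levels are log2 of the median spot signal after quantile normalization, and each chain is given by its brightest tested probe. The share of spots well above background was 66.1% to 71.9% per array. All 8 adipocyte markers of a fixed list were measured, with Fabp4, a fatty acid carrier, as the brightest. Some arrays stood apart in transcripts of neighbouring tissue, 4 of them in those of sperm cells. In Ref mice 3 and 6, HFoleic mouse 5 and HFepa mouse 4, the mean log2 level of 4 sperm cell transcripts (Prm1, Prm2, Tnp1, Tnp2) lay between 8.10 and 9.06, against 5.86 to 6.60 in the other 16 mice. The numbers of collagen chains called at the adjusted threshold are therefore also given without these 4 arrays, a choice made after seeing the data, whereas the other counts below are those of all 20 arrays. Outside these 4, HFepa mouse 7 had the highest mean level of 6 epithelial markers of all mice, 9.98, and HFepa mouse 2 had a mean level of 2 epididymis markers of 9.50, below only Ref mouse 3 at 10.3. Without HFepa mouse 7, 16 chains were higher in HFoleic vs. Ref and 0 in HFepa vs. Ref, and without HFepa mouse 2 these counts were 16 and 1. All shares of tested genes given below are those of the fit to all 20 arrays.

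The glycine repeat can be read in the probes themselves. Glycine codons begin with GG, so a probe within a triple helix has GG every 9 bases. A run of at least 5 GG at this spacing on the sense strand was present in 6 of 91 collagen probes (6.59%) and in 10 of 56514 other probes (0.0177%). Of the 6, 4 are shown, because they read chains that the results below turn on or compare, with the GG of the glycine codons in capitals (5′ to 3′, coordinates on mm9 as in the files).
Col16a1, chr4:129756457-129756516, + strand: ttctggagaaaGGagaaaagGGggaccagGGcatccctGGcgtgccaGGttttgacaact
Col6a3, chr1:92689602-92690594, − strand: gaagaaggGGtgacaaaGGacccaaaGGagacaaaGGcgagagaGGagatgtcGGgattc
Col5a3, chr9:20590066-20590795, − strand: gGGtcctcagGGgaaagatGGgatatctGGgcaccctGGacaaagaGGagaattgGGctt
Col15a1, chr4:47283786-47283845, + strand: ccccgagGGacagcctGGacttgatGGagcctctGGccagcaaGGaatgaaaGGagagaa
The Col6a3 and Col5a3 probes span more of the genome than their own 60 bases, so their matches are split between exons. Exons and UTRs of the files' build were not annotated here.

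In HFoleic vs. Ref, 16 of the 40 collagen chains were higher and 2 were lower at an adjusted p under 0.05, where 15.2% of all tested genes were higher and 16.7% lower. The median log2 difference was 0.24 over the collagen chains and -0.04 over all tested genes. Higher levels were found for 7 of 10 fibrillar chains, for 2 of 6 basement membrane chains and for 7 of 24 other chains. The median log2 difference of the fibrillar class was 0.82, that of the basement membrane class -0.03 and that of the other chains 0.14. With 1 array left out the basement membrane median lay between -0.09 (without HFoleic mouse 5) and 0.06 (without Ref mouse 6), and it was 0.09 without the 4 arrays with sperm cell transcripts. Within the slides it was -0.45, 0.43 and 0.39, and it was positive with the replicate number as a block. The groups did not overlap for 11 chains that were higher and 1 that was lower, against 6.92% and 7.08% of all tested genes. Without the 4 arrays with sperm cell transcripts, 13 chains were higher and 0 were lower, in a fit for which the shares of all tested genes were not counted. Col4a1, Col4a2, Col5a3, Col6a4, Col9a2 and Col20a1 were no longer called, and the 13 hold a chain not called with all arrays. The differences of Col6a4 (0.47), Col20a1 (-0.36) and Col9a2 (-0.18) without those arrays were about as large as with them.

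**Figure D1:**
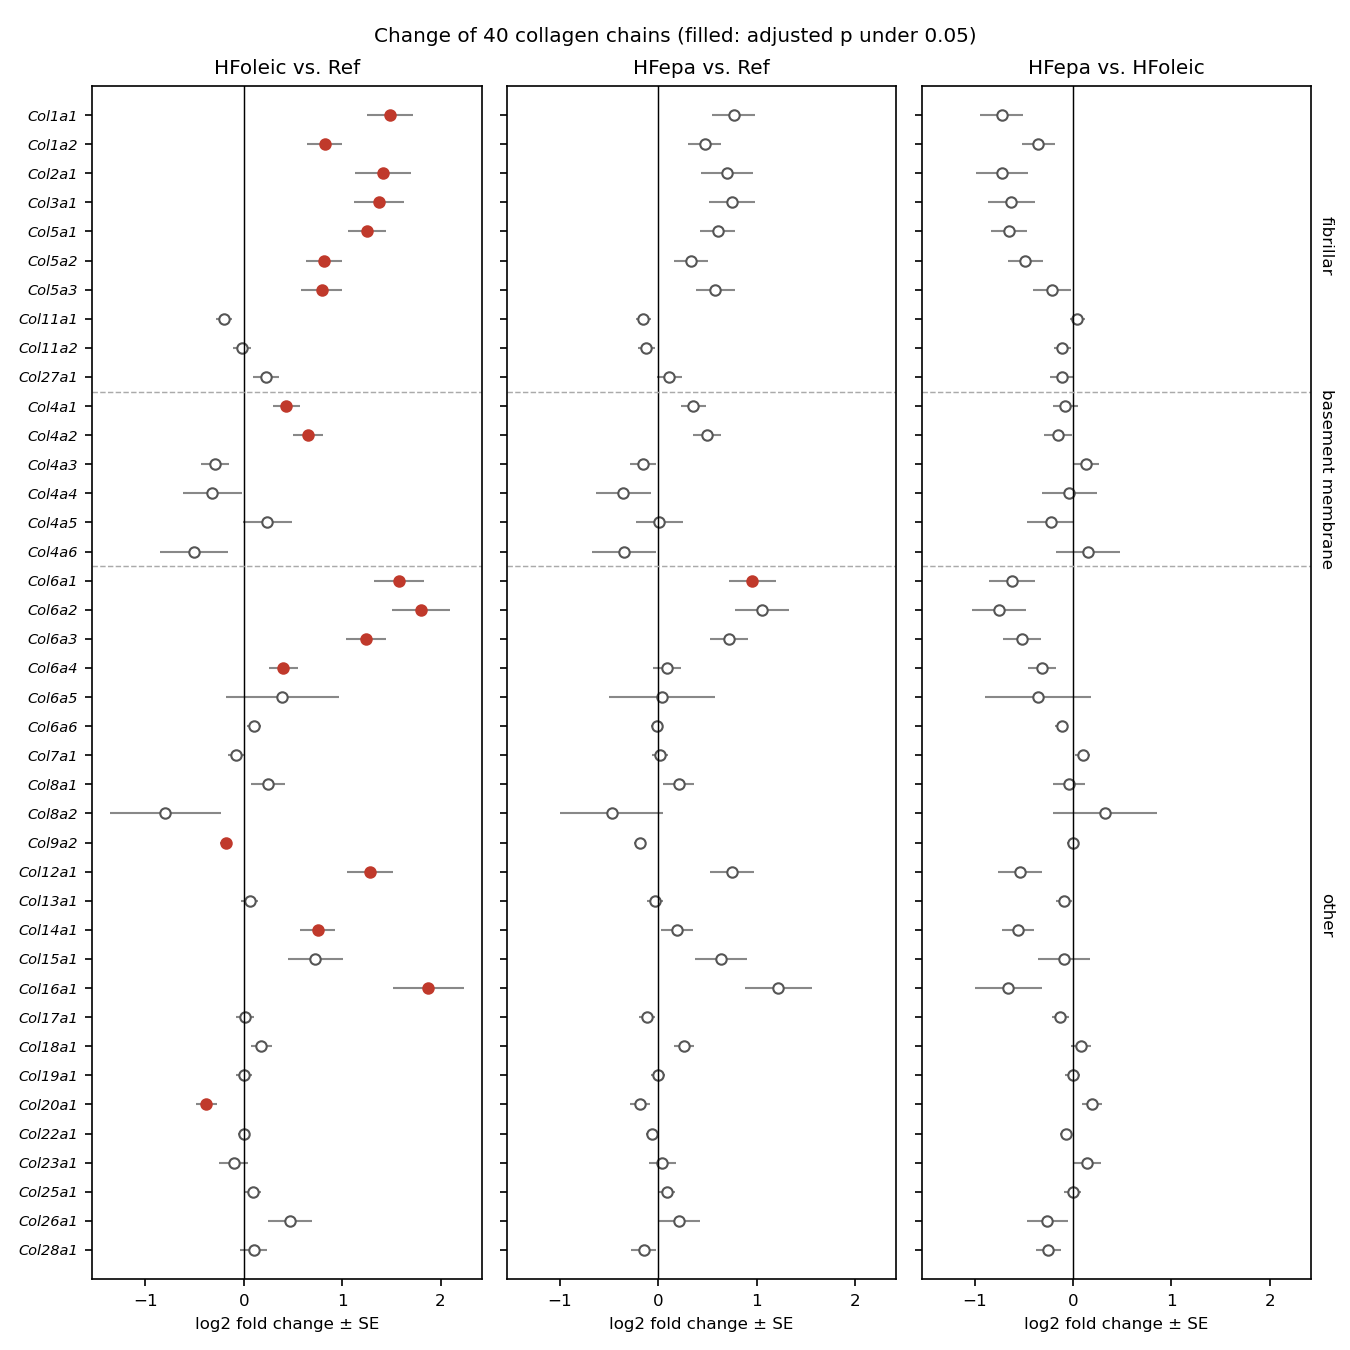
Log2 fold change ± SE of the 40 tested collagen chains by class (rows) in the 3 comparisons (panels); filled points have an adjusted p under 0.05. In HFoleic vs. Ref 7 of 10 fibrillar chains and 4 of 6 type VI chains lie to the right of 0 and are filled, whereas only Col6a1 is filled in HFepa vs. Ref and none in HFepa vs. HFoleic.

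Type I collagen is made of the chains of Col1a1 and Col1a2. For Col1a1 (NM_007742, chr11:94813075-94813134), the lowest, median and highest log2 level were 11.68, 12.16 and 12.45 in the Ref mice, 12.79, 13.67 and 14.28 in the HFoleic mice, and 12.30, 12.76 and 13.62 in the HFepa mice. Every HFoleic mouse was above every Ref mouse, while the HFepa mice overlapped both groups. Col1a1 rose by 1.49 ± 0.24 (log2, SE) in HFoleic vs. Ref, a 2.80-fold change (limma, adjusted p = 0.000453). Its HFepa vs. Ref difference was 0.76 ± 0.22 (adjusted p = 0.0665).

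Col1a2 (NM_007743, chr6:4490619-4490678) lay between 13.84 and 14.65 in the Ref mice (median 14.47), between 14.90 and 15.73 in the HFoleic mice (median 15.13) and between 14.13 and 15.27 in the HFepa mice (median 14.93). The Ref and HFoleic groups did not overlap. It was 0.82 ± 0.18 higher in HFoleic vs. Ref (adjusted p = 0.00235), and the HFepa vs. Ref difference was 0.47 ± 0.17 (adjusted p = 0.122).

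Col3a1, the single chain of type III collagen (NM_009930, chr1:45405589-45405648), had log2 levels of 13.98 to 14.89 in the Ref mice (median 14.03), 14.89 to 16.16 in the HFoleic mice (median 15.67) and 14.08 to 15.72 in the HFepa mice (median 14.97). The groups touched because Ref mouse 7 was as high as HFoleic mouse 1, while the other 5 Ref mice were at 14.28 or below. The rise in HFoleic vs. Ref was 1.37 ± 0.25, or 2.59-fold (adjusted p = 0.00082), and the HFepa vs. Ref difference was 0.75 ± 0.23 (adjusted p = 0.086).

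Type V collagen, which is built into type I fibrils, rose in all 3 chains in HFoleic vs. Ref. Col5a1 (NM_015734, chr2:27894595-27894654) ranged from 11.31 to 12.21 in the Ref mice (median 11.39), from 12.26 to 13.20 in the HFoleic mice (median 12.77) and from 11.68 to 12.73 in the HFepa mice (median 12.10). All HFoleic mice were above all Ref mice, narrowly so for Ref mouse 7 and HFoleic mouse 1. Its rise was 1.25 ± 0.19 (adjusted p = 0.000403), the smallest adjusted p of any chain. Col5a2 rose by 0.82 and Col5a3 by 0.79, with adjusted p of 0.00313 and 0.00735. Without the 4 arrays with sperm cell transcripts Col5a3 differed by 0.58 (adjusted p = 0.0899), and its adjusted p lay between 0.000348 and 0.0899 over the alternatives. Its call was also lost with the replicate number as a block, where it differed by 0.62 (limma, adjusted p = 0.0597).

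Col2a1, the chain of type II collagen, which is known from cartilage (NM_031163, chr15:97806485-97806544), was also higher. It lay between 8.19 and 9.09 in the Ref mice (median 8.30), between 9.17 and 10.40 in the HFoleic mice (median 9.95) and between 8.08 and 10.04 in the HFepa mice (median 9.11). The Ref and HFoleic groups did not overlap, and the rise was 1.42 ± 0.28 (adjusted p = 0.00141). Of 6 fixed cartilage markers, Acan, Matn1, Matn3 and Hapln1 were not well above background on enough arrays to be tested, Sox9 differed by -0.56 (adjusted p = 0.43) and Comp was higher by 0.90 (adjusted p = 0.017). The array has 1 probe for Col2a1, so no other probe bears on it. The remaining tested fibrillar chains, Col11a1, Col11a2 and Col27a1, differed by -0.20, -0.02 and 0.22 and were not called. Col11a1 was well above background on only 7 arrays.

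**Figure D2:**
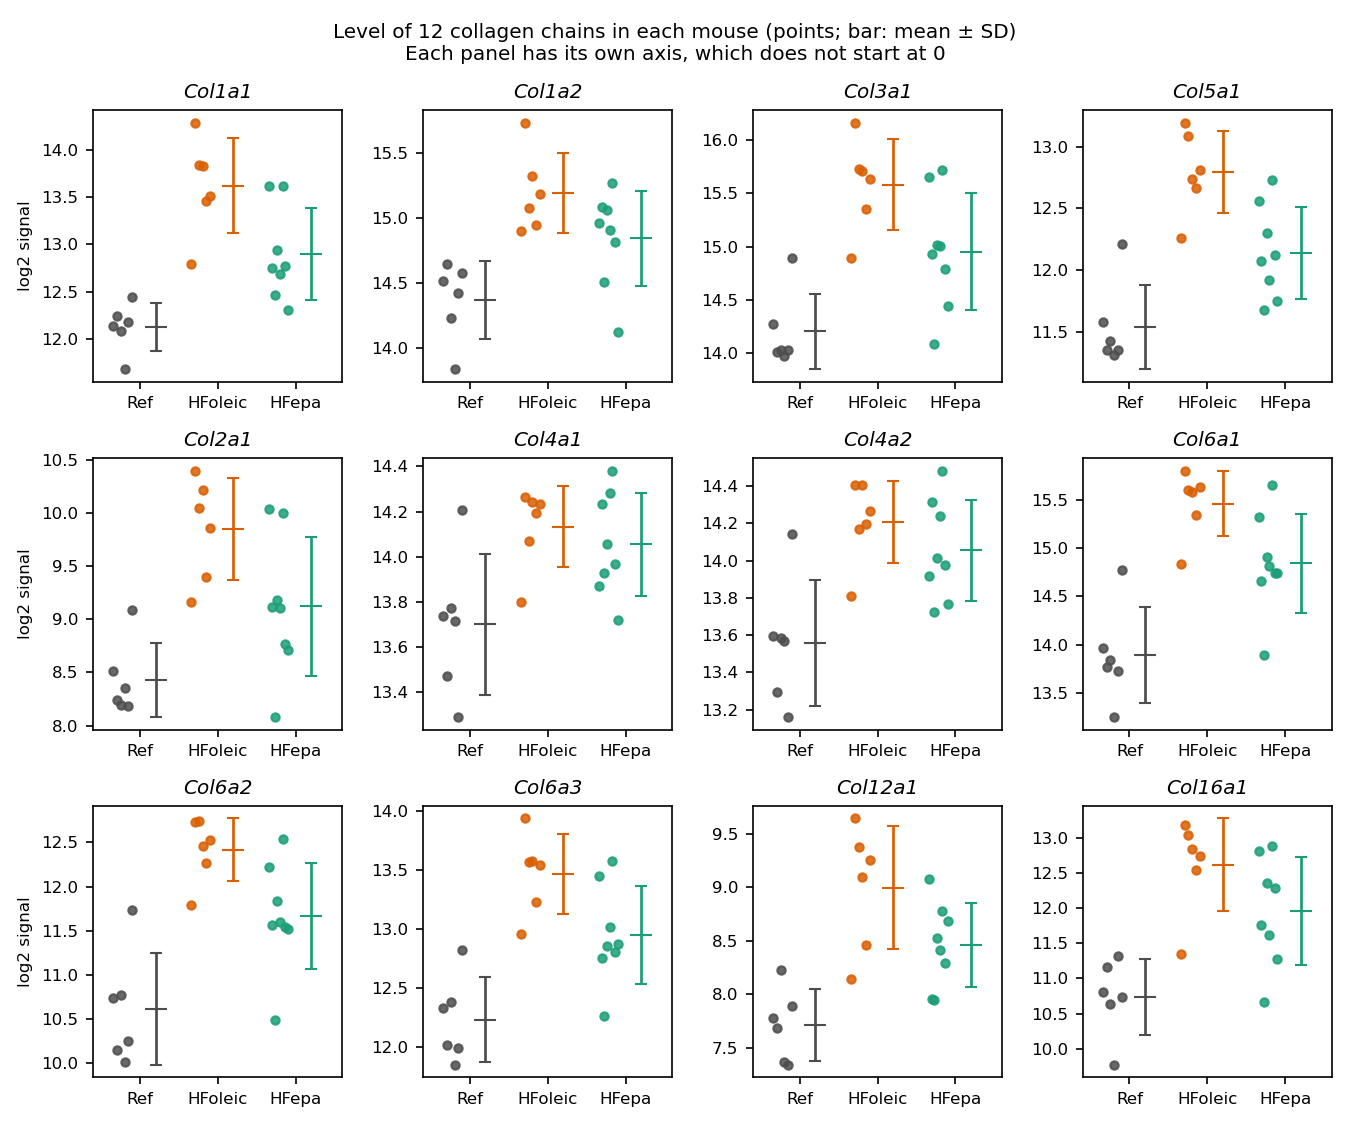
Log2 signal of 12 collagen chains in each mouse, with the mean ± SD of each group beside its points and an axis for each panel. For Col1a1 the HFoleic mice lie between 12.79 and 14.28, above all Ref mice, and Ref mouse 7 is the highest Ref point for Col3a1, Col5a1, Col2a1 and the chains of types IV and VI.

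Among the basement membrane chains, the pair that forms the common type IV collagen rose and the rest did not pass the test. Col4a1 (NM_009931, chr8:11199009-11199068) lay between 13.29 and 14.21 in the Ref mice (median 13.73), between 13.80 and 14.26 in the HFoleic mice (median 14.21) and between 13.72 and 14.38 in the HFepa mice (median 14.01). The groups overlapped through Ref mouse 7. The rise in HFoleic vs. Ref was 0.43 ± 0.13 (adjusted p = 0.0193).

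Col4a2 (NM_009932, chr8:11448840-11448899) ranged from 13.16 to 14.14 in the Ref mice (median 13.58), from 13.81 to 14.41 in the HFoleic mice (median 14.23) and from 13.72 to 14.48 in the HFepa mice (median 14.00). Here too only Ref mouse 7 reached into the HFoleic range. It rose by 0.65 ± 0.15 (adjusted p = 0.0037). Without the 4 arrays with sperm cell transcripts, neither chain was called: Col4a1 differed by 0.29 (adjusted p = 0.178) and Col4a2 by 0.49 (adjusted p = 0.0585). Over the alternatives with a test, their adjusted p lay between 0.00268 and 0.178 for Col4a1 and between 0.000302 and 0.0585 for Col4a2.

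The chains of the more specialised type IV networks differed by -0.29 for Col4a3, -0.32 for Col4a4, 0.24 for Col4a5 and -0.51 for Col4a6, none of them called. Col4a4 was highest in the 4 mice with sperm cell transcripts, at 8.26 to 8.72 against 6.75 to 7.62 in the other 16. Col8a2, a chain of the type VIII network, had the same 4 mice on top, at 8.50 to 9.45 against 5.97 to 7.54. Its HFoleic vs. Ref difference was -0.80 ± 0.56 (adjusted p = 0.303), the largest difference of any collagen chain that was not called. Whether testis tissue contributed to the levels of Col4a4 and Col8a2 was not tested.

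Type VI collagen, whose common form joins the chains of Col6a1, Col6a2 and Col6a3, was among the largest changes. Col6a1 (NM_009933, chr10:76171538-76171597) lay between 13.24 and 14.78 in the Ref mice (median 13.81), between 14.83 and 15.80 in the HFoleic mice (median 15.59) and between 13.89 and 15.65 in the HFepa mice (median 14.78). All HFoleic mice were above all Ref mice, and 7 of 8 HFepa mice were above 5 of the 6 Ref mice. It rose by 1.58 ± 0.25 in HFoleic vs. Ref, or 2.99-fold (adjusted p = 0.000458).

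Col6a2 (NM_146007, chr10:76058931-76058990) had levels of 10.01 to 11.74 in the Ref mice (median 10.50), 11.80 to 12.74 in the HFoleic mice (median 12.49) and 10.49 to 12.54 in the HFepa mice (median 11.58). The Ref and HFoleic groups were separated by the small step between Ref mouse 7 and HFoleic mouse 1. The rise in HFoleic vs. Ref was 1.80 ± 0.30, or 3.49-fold (adjusted p = 0.000482).

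Col6a3 (NM_001243008, chr1:92663663-92663722) ranged from 11.85 to 12.82 in the Ref mice (median 12.17), from 12.96 to 13.94 in the HFoleic mice (median 13.56) and from 12.26 to 13.58 in the HFepa mice (median 12.87). The Ref and HFoleic groups did not overlap, and the rise was 1.24 ± 0.20 (adjusted p = 0.000485). Of the newer type VI chains, Col6a4 was higher by 0.40 (adjusted p = 0.0486), a call lost in 16 of 34 alternatives, whose adjusted p ran from 0.0243 to 0.138. Col6a5 differed by 0.39 ± 0.57 with levels from 9.26 to 12.86 over all mice, and Col6a6 differed by 0.10 and was above background on 6 arrays.

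Of the 7 tested FACIT chains, Col16a1, Col12a1 and Col14a1 rose, Col20a1 and Col9a2 fell, and Col19a1 and Col22a1 each differed by 0.00. Col16a1 (NM_028266, chr4:129776333-129776392) lay between 9.77 and 11.32 in the Ref mice (median 10.77), between 11.35 and 13.18 in the HFoleic mice (median 12.79) and between 10.67 and 12.88 in the HFepa mice (median 12.02). HFoleic mouse 1 was just above the highest Ref mouse, and the other 5 HFoleic mice were at 12.54 or above. Its rise of 1.88 ± 0.36, or 3.67-fold, was the largest of the 40 chains (adjusted p = 0.00117).

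Col12a1 (NM_001290308, chr9:79446895-79446954) had levels of 7.34 to 8.22 in the Ref mice (median 7.73), 8.15 to 9.64 in the HFoleic mice (median 9.17) and 7.95 to 9.08 in the HFepa mice (median 8.48). HFoleic mouse 1 was the only HFoleic mouse within the Ref range. The rise in HFoleic vs. Ref was 1.28 ± 0.24 (adjusted p = 0.000917), and Col14a1 rose by 0.75 (adjusted p = 0.00332). Col20a1 fell by 0.38 (adjusted p = 0.0116) and Col9a2 fell by 0.18 (adjusted p = 0.0411). Over 34 alternatives the call was lost in 2 for Col20a1 (adjusted p from 0.001 to 0.0634) and in 15 for Col9a2 (0.00591 to 0.115). Both were lost without the 4 arrays with sperm cell transcripts and with the replicate number as a block. In these 2 fits Col20a1 differed by -0.36 and -0.37 and Col9a2 by -0.18 and -0.21.

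None of the other collagen chains was called by its brightest probe in HFoleic vs. Ref. Col15a1, a chain found at the outer face of basement membranes, differed by 0.73 (adjusted p = 0.0564), and Col18a1, the source of endostatin, by 0.18. The 4 membrane-spanning chains Col13a1, Col17a1, Col23a1 and Col25a1 lay between -0.10 and 0.09. Col7a1 of anchoring fibrils, Col8a1, Col26a1 and Col28a1 differed by -0.08, 0.25, 0.47 and 0.10.

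Within each of the 3 slides, all 12 chains plotted by mouse had a higher mean in the HFoleic than in the Ref arrays. The smallest such difference was 0.30 for Col4a1 on slide 2, which held 1 HFoleic array. Col1a2 differed by 0.56, 1.52 and 0.68 on slides 1, 2 and 3, and Col6a2 by 1.81, 1.86 and 1.98. All 12 chains were called higher over these same arrays, so their choice favoured a same direction within the slides. The remaining called chains were not read by slide.

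In HFepa vs. Ref, 1 of the 40 collagen chains was higher and 0 were lower, where 1.03% of all tested genes were higher and 1.42% lower. The chain was Col6a1, with a rise of 0.96 ± 0.24, or 1.94-fold (adjusted p = 0.0394). At an unadjusted p under 0.05, 15 chains were higher and 1 was lower, against 10.0% and 11.5% of all tested genes. In none of the 40 chains were the HFepa mice all above the Ref mice, as they were for 0.371% of all tested genes. The number of chains called higher moved both ways with the processing, to 8 with array weights and to between 0 and 10 with 1 array left out, with 10 without HFepa mouse 3 and 8 without Ref mouse 7. For these fits the share of all tested genes called was not counted, so the numbers of chains cannot be set against it. The call on Col6a1 was lost in 16 of 34 alternatives. Over all 34 its difference from Ref stayed between 0.83 and 1.13 and its adjusted p between 0.00956 and 0.223, the latter without the 4 arrays with sperm cell transcripts, where 0 chains were called.

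No other chain passed the threshold in HFepa vs. Ref. Col6a2 differed by 1.05 ± 0.28 (adjusted p = 0.0505), Col6a3 by 0.72 ± 0.19 (adjusted p = 0.0516) and Col16a1 by 1.22 ± 0.34 (adjusted p = 0.0593). Col4a2 differed by 0.50 ± 0.14 (adjusted p = 0.067), Col5a1 by 0.60 ± 0.18 (adjusted p = 0.0725) and Col12a1 by 0.75 ± 0.22 (adjusted p = 0.0728). Col2a1 differed by 0.70 and Col4a1 by 0.35, with adjusted p of 0.145 and 0.121. The median log2 difference was 0.53 for the fibrillar class, -0.07 for the basement membrane class and 0.06 for the other chains, and -0.02 over all tested genes. Leaving out 1 array moved the basement membrane median between -0.13 (without HFepa mouse 7) and -0.01 (without HFepa mouse 1). That of the other chains moved between 0.03 (without HFepa mouse 7) and 0.12 (without Ref mouse 3).

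In HFepa vs. HFoleic, 0 of the 40 collagen chains passed the adjusted threshold in limma, as did 0.00% of all tested genes, and the count was also 0 without the 4 arrays with sperm cell transcripts. At an unadjusted p under 0.05, 12 chains were lower and 0 were higher, against 10.0% of all tested genes lower and 10.8% higher. They were 6 fibrillar chains (Col1a1, Col1a2, Col2a1, Col3a1, Col5a1 and Col5a2), the type VI chains Col6a1, Col6a2, Col6a3 and Col6a4, and the FACIT chains Col12a1 and Col14a1. The HFepa mice were not all below the HFoleic mice for any chain, as they were for 0.203% of all tested genes. Cell type markers, listed below, were read at the same unadjusted threshold. Lower were 6 of 8 general macrophage, 5 of 7 lipid-associated macrophage and 5 of 10 fibroblast and progenitor markers, with 0 higher. Of 8 endothelial markers 2 were higher and 0 were lower. The adipocyte (8 tested), mesothelial (7) and epididymis (2) lists each had 1 marker higher and 0 lower. No mural, Schwann cell, epithelial, cartilage or testis marker passed this threshold.

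The largest of these differences in HFepa vs. HFoleic was -0.75 ± 0.28 for Col6a2, with a 95% confidence interval of -1.33 to -0.17 (adjusted p = 0.15). Col1a1 differed by -0.72 ± 0.22 (-1.18 to -0.26, adjusted p = 0.126) and Col5a1 by -0.65 ± 0.18 (-1.03 to -0.28, adjusted p = 0.118). For the basement membrane pair the intervals held 0, with -0.08 (-0.34 to 0.18) for Col4a1 and -0.15 (-0.45 to 0.15) for Col4a2. The class medians were -0.42 for fibrillar, -0.06 for basement membrane and -0.11 for other chains. Leaving out 1 array moved the basement membrane median between -0.11 (without HFepa mouse 4) and 0.03 (without HFoleic mouse 5). With array weights 10 chains were called lower, and without HFepa mouse 1 there were 4. The share of all tested genes called was not counted for these fits, so their counts cannot be set against it.

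The class levels show the spread between mice. A class level is the mean, over its tested chains, of the deviation of each chain from its own mean over the 20 mice on the log2 scale. For the fibrillar class it lay between -0.56 and 0.00 in the Ref mice (median -0.46), between 0.02 and 0.75 in the HFoleic mice (median 0.43) and between -0.42 and 0.43 in the HFepa mice (median -0.06). Ref mouse 7 and HFoleic mouse 1 met near 0, and the HFepa mice overlapped both other groups, with HFoleic mice 4, 5 and 6 above all of them.

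**Figure D3:**
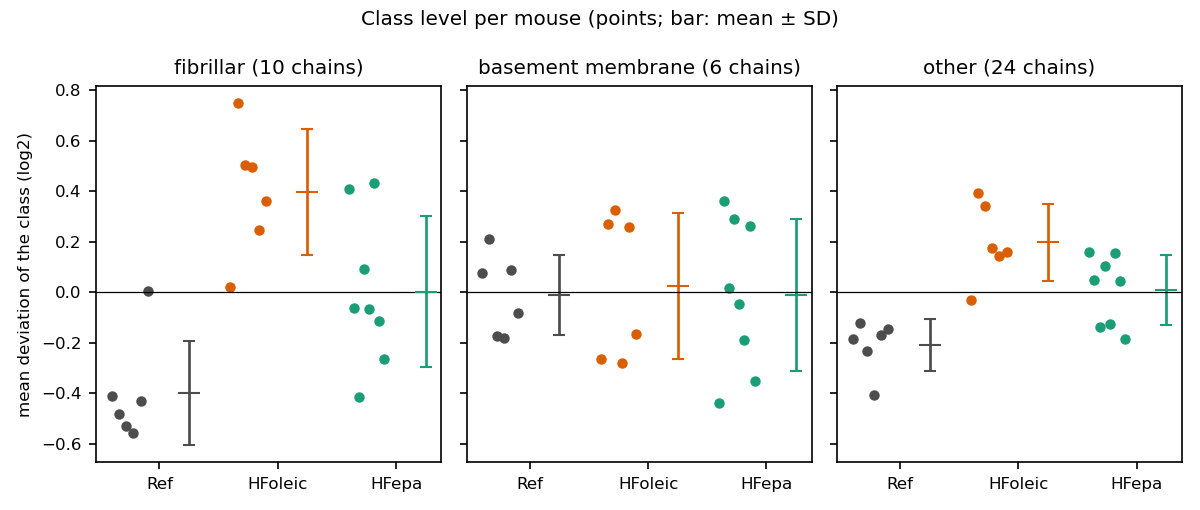
Mean log2 deviation of the tested chains of each class in each mouse (points), with the mean ± SD of each group. The fibrillar levels run from -0.56 to 0.00 in the Ref mice and from 0.02 to 0.75 in the HFoleic mice, whereas the basement membrane levels of the 3 groups overlap, with the widest range in the HFepa mice.

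Basement membrane levels were between -0.18 and 0.21 in the Ref mice, between -0.28 and 0.33 in the HFoleic mice and between -0.44 and 0.36 in the HFepa mice, so the 3 groups overlapped throughout. The level of the other chains was between -0.41 and -0.12 in the Ref mice, between -0.03 and 0.39 in the HFoleic mice and between -0.18 and 0.16 in the HFepa mice. HFepa mice 1 and 6 had the highest fibrillar levels of their group, 0.41 and 0.43, and HFepa mouse 3 the lowest, -0.42. In HFepa mouse 1 Col6a1 was at 15.32 and Col1a1 at 13.62, and in HFepa mouse 3 they were at 13.89 and 12.47.

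**Figure D4:**
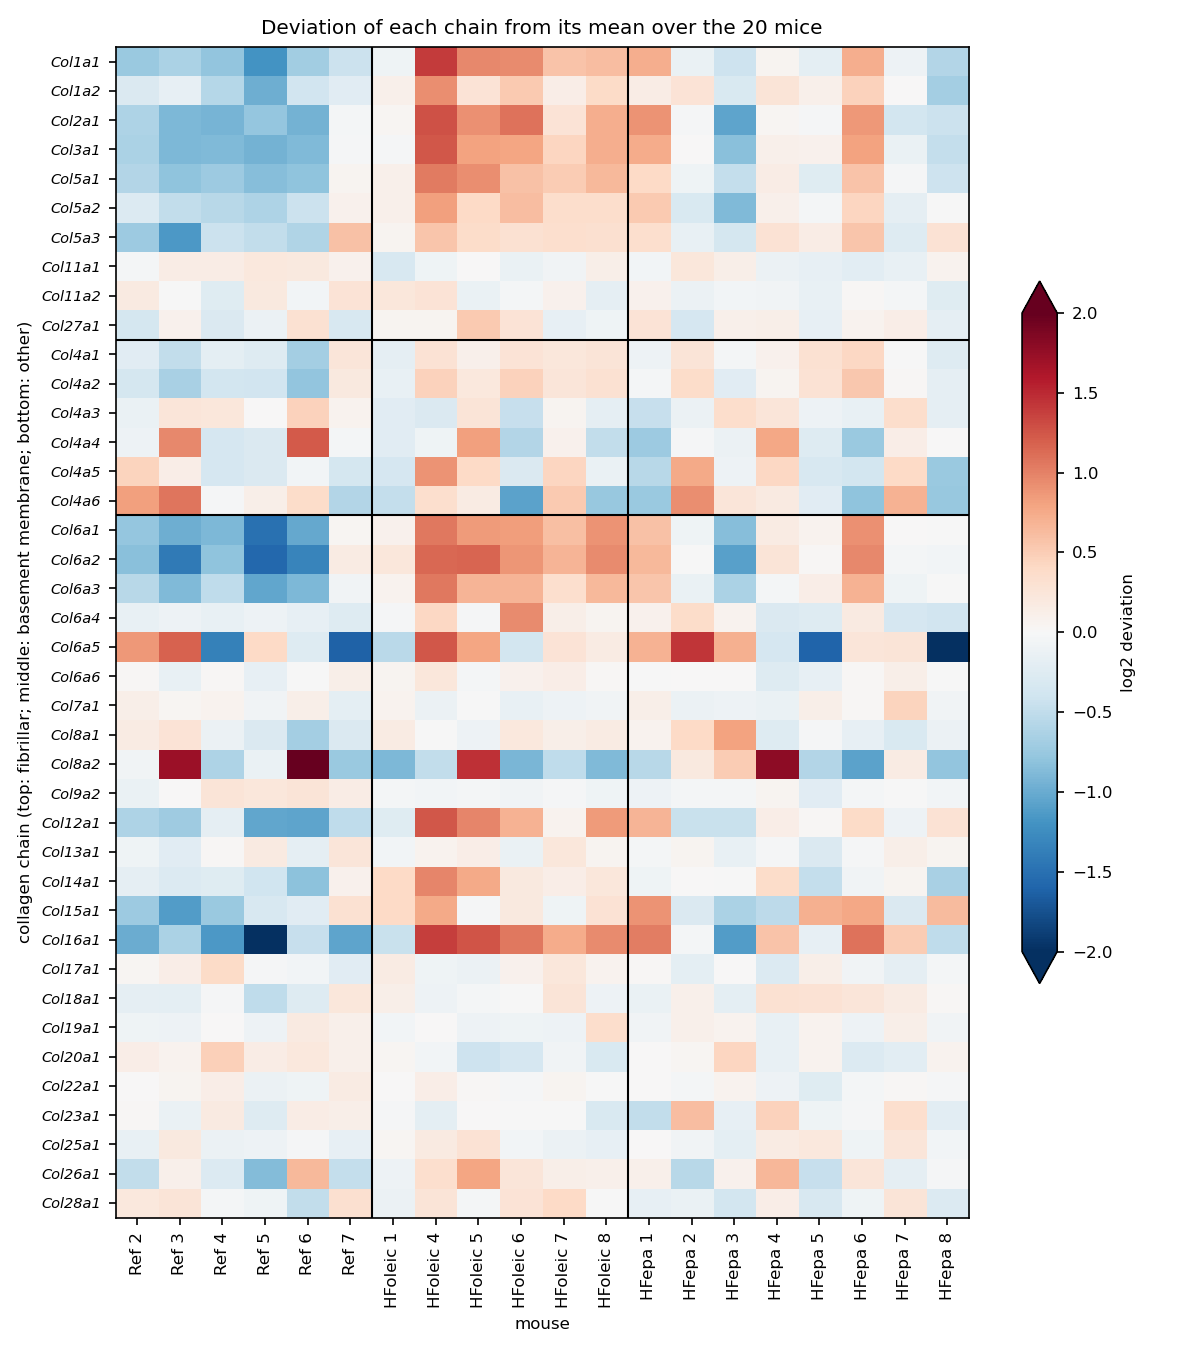
Deviation of each tested chain (rows, by class) from its mean over the 20 mice (columns), on a log2 scale from -2 to 2. The chains of types I, II, III and V, Col6a1, Col6a2, Col6a3, Col12a1 and Col16a1 are above their means in HFoleic mice 4 to 8 and in HFepa mice 1 and 6, and Col8a2 and Col4a4 are highest in Ref mice 3 and 6, HFoleic mouse 5 and HFepa mouse 4.

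Markers of cell types were followed beside the chains, since in whole tissue fewer cells of a type and less RNA per cell cannot be told apart. In HFoleic vs. Ref, the marker counts stand beside 15.2% of all tested genes higher and 16.7% lower. Of 10 fibroblast and progenitor markers, 4 rose and 0 fell, among them Thy1, a surface protein of stromal cells, by 0.62 and Fap, a protease of activated fibroblasts, by 0.94. Their mean log2 level was 11.64 to 12.13 in the Ref mice, 12.02 to 12.46 in the HFoleic mice and 11.77 to 12.16 in the HFepa mice, with Cd34 as the brightest and all 10 markers measured. Pdgfra, the receptor that marks most adipose fibroblasts, differed by -0.05 and Dpt by -0.13.

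Some markers of lipid-associated macrophages rose by more than any collagen chain. Of 7 such markers 6 rose in HFoleic vs. Ref, with Gpnmb at 4.89 and Trem2 at 4.22, and Lpl, the brightest, differed by 0.10. Their mean level was 9.49 to 10.80 in the Ref mice, 12.30 to 13.86 in the HFoleic mice and 10.02 to 14.31 in the HFepa mice. HFepa mice 1 and 6, which had the highest fibrillar collagen, were at 14.31 and 13.44, the highest of their group, and HFepa mouse 3 at 10.02 was the lowest. Other mice did not follow this order. Ref mouse 7 had the highest fibrillar level of the Ref mice, 0.00, with a marker level of 10.16, below that of Ref mouse 2 at 10.80. HFepa mouse 5 was at 10.39, close to HFepa mouse 3, with a fibrillar level of -0.06. The mean level of the fibroblast and progenitor markers was highest in HFepa mouse 5, at 12.16, and not in HFepa mice 1 and 6. Of 8 general macrophage markers 6 rose and 1 fell, again beside 15.2% and 16.7% of all tested genes. Among the HFepa mice their mean level was highest in mice 1 and 6, at 12.34 and 12.09. It was lowest in HFepa mouse 8, at 10.38, with HFepa mouse 3 at 11.19. Whether the numbers of macrophages or of fibroblasts had a part in the collagen differences was not tested.

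No marker of the endothelial (8 tested), mural (7), mesothelial (7) or epithelial (6) lists was called in HFoleic vs. Ref, while 2 of 8 adipocyte markers (Lipe and Pnpla2, both lipases) fell, a share near the 16.7% of all tested genes that were lower. Of 7 epididymis markers only 2 were measured and none was called, and of 6 testis markers 4 were measured and Tnp2 fell.

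Genes that make, join and remove collagen were read from fixed lists, against the 15.2% of all tested genes that were higher in HFoleic vs. Ref. Of 15 genes of chain folding and modification 8 rose and 0 fell. Serpinh1, the chaperone of procollagen, rose by 1.00 (adjusted p = 0.00039) and Colgalt1, which adds galactose to collagen, by 0.79 (adjusted p = 0.0011). In HFepa vs. Ref, where 1.03% of all tested genes were higher, 3 of these 15 rose, namely Serpinh1 by 0.74, P4ha1, a prolyl hydroxylase subunit, by 0.40 and Plod2, a lysyl hydroxylase, by 0.36.

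Of 6 tested genes that trim the ends of procollagen, 4 rose in HFoleic vs. Ref. Pcolce2 rose by 1.75 and Pcolce by 0.72, both enhancers of the protease that removes the C-propeptide. Among 5 cross-linking enzymes 3 rose, with Loxl1 at 0.92 and Loxl3 at 0.33, and Lox itself differed by -0.19 (adjusted p = 0.42). Of 7 genes of collagen breakdown and uptake 4 rose, with Ctsk, the protease cathepsin K, at 2.67 and Mrc2, an uptake receptor for collagen fragments, at 2.10.

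Receptors and partners of collagen were read in the same way, against 15.2% of all tested genes higher and 16.7% lower. Of 8 tested collagen receptors 5 rose and 1 fell, with Lair1, an inhibitory receptor of immune cells, at 1.96 and Gp6, the platelet receptor, at -0.31. Of 7 fibril partners 4 rose, and the smallest p-values were those of the proteoglycans Lum, at 1.57, and Bgn, at 0.59. Of 11 basement membrane partners 4 rose and 2 fell, the latter a share near that of all tested genes. Lama4, a laminin chain, fell by 0.53, and Sparc, which binds collagen and stands in both partner lists, rose by 0.27. In HFepa vs. Ref, where 1.03% of all tested genes were higher, Sparc was the only partner called, with 0.21 (adjusted p = 0.046).

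Chains read by several probes show how far a value rests on the probe. For 20 chains 27 further probes were tested, of which 22 had the same sign as the brightest probe in HFoleic vs. Ref and 10 were called, all with the same sign. The further Col6a3 probes differed by 0.60 and -0.04, the Col3a1 probes by 0.60 and 0.58 and the Col1a2 probes by 0.27 and 0.15. These Col3a1 and Col1a2 probes and the Col6a3 probe at -0.04 are annotated to other transcript records than the brightest probe of their chain. Col15a1 was called by its second probe, with 0.92 (adjusted p = 0.00401). Of the glycine repeat probes printed above, those of Col16a1, Col6a3 and Col5a3 gave 0.72, 0.60 and 0.53, each below the brightest probe of its chain, and that of Col15a1, which is itself the brightest, gave 0.73.

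Rises were also compared by the position of the probes along the gene. Of the 20 chains, 9 were called higher by their brightest probe, and in 9 of 9 the probe nearest the 3′ end showed the largest rise. This was so for 58.8% of the 1657 other genes with several tested probes that were higher at their brightest probe. The probe nearest the 3′ end was the brightest in 8 of the 9 chains and in 80.0% of those genes. Over the 9 chains the median rise was 1.28 at the 3′ probe and 0.53 for the mean of the others, compared with 0.46 and 0.34 for the other genes. In the 11 chains with several probes that were not called by the brightest, the 3′ probe gave the largest value in 6. The fold changes printed for 8 of these 9 chains are thus those of the 3′ probe. Only samples above a minimum RNA integrity number were hybridized, per the methods of the study. The values of the single samples were not given in the sources used here, so the part of RNA integrity was not tested. This comparison was chosen after seeing the data. The 9 chains were picked by a rise at the brightest probe, which was mostly the 3′ probe, so position and brightness cannot be told apart. Some of the other probes, among them those of Col3a1, Col1a2 and Col5a2, are annotated to other transcript records than the brightest. Whether they read the same transcripts was not tested. The other tested Col12a1 probe was well above background on only 2 of the 6 Ref arrays, so its rise of 0.45 starts near background.

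**Figure D5:**
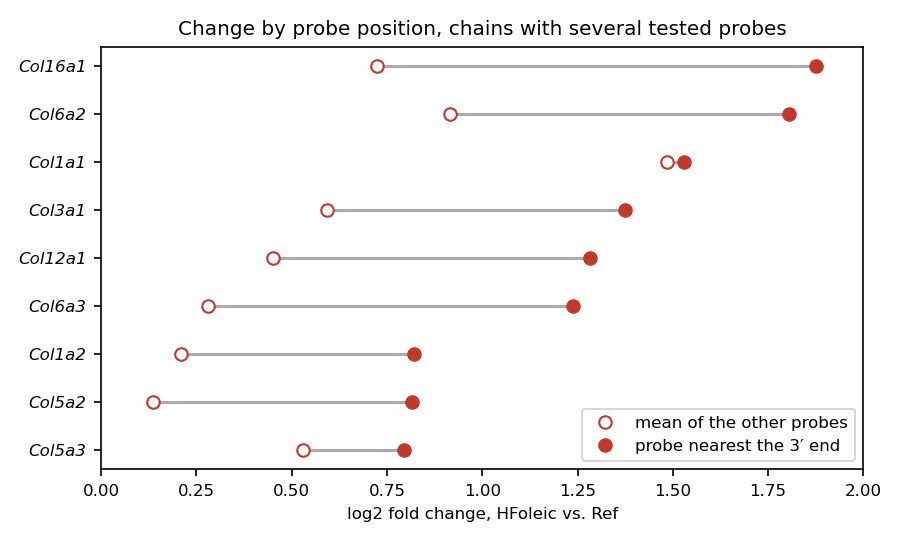
Log2 fold change in HFoleic vs. Ref of the 9 chains with several tested probes that were called by the brightest, for the probe nearest the 3′ end (filled) and the mean of the other probes (open). The filled point is to the right in all 9 chains, from 1.88 against 0.72 for Col16a1 to 1.53 against 1.48 for Col1a1.

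Promoters of the chains were searched for 3 motifs, since several chains moved together. In the 250 bases before the start of transcription, both strands, TATAAA was present in 4 of the 32 tested chains matched in the table of RefSeq promoters used here (GRCm38.p6, 12.5%) and in 13.0% of all promoters. Promoters of Col1a1, Col2a1, Col5a2, Col12a1 and Col14a1, which rose in HFoleic vs. Ref, and of Col4a3, Col22a1 and Col26a1 were not analysed here. CCAAT was present in 12 of 32 (37.5%) and in 34.5% of all, and the GC box GGGCGG in 21 of 32 (65.6%) and in 32.9% of all. The GC box was present in 7 of 11 matched chains that rose in HFoleic vs. Ref and in 14 of 21 of the rest. CCAAT was present in 6 of 11 chains that rose and in 6 of 21 of the rest, and TATAAA in 1 of 11 and 3 of 21. The windows of 3 chains that rose and differ in motif are shown 5′ to 3′ on the strand of the gene, with matches in capitals.
Col1a2, chr6:4505368-4505617, + strand: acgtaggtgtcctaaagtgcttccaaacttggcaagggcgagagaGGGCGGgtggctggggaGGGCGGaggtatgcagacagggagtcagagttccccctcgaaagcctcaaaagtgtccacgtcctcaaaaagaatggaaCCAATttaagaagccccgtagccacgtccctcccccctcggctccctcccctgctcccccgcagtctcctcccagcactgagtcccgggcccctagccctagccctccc
Col3a1, chr1:45311288-45311537, + strand: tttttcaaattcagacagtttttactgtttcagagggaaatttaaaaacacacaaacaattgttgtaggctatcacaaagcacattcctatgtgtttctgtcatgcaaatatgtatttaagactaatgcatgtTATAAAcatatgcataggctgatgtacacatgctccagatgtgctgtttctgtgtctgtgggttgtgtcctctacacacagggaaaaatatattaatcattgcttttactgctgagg
Col6a1, chr10:76726045-76726294, − strand: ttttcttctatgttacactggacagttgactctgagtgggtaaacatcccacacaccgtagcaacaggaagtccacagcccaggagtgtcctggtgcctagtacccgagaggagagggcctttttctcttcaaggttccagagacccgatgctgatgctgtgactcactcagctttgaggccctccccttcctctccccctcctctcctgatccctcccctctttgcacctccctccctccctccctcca
The Col1a2 window holds GC boxes and a CCAAT, the Col3a1 window holds TATAAA alone, and the Col6a1 window holds none of the 3 words.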

How the data were processed

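Total RNA of VAT was labelled with Cy3 and hybridized to 20 single-colour Agilent SurePrint G3 mouse arrays. The authors extracted spot intensities with Agilent Feature Extraction 10.10.1.1, and as deposited the median intensity is linear and not normalized. The authors also deposited log2 values, made from the median signal by a probe filter, whose rule was not given in the sources used here, and quantile normalization.

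The spot files were read with the R package data.table (version 1.17.8) and fitted with limma 3.58.1 under R 4.3.3. Control spots and spots marked as non-uniform or population outliers were left out, which left 25 missing values. Probes well above background on at least 6 arrays were kept (39391), and log2 median intensities were quantile normalized, without background correction. Spots of 1 probe were averaged. One mean per group was fitted to all 20 arrays with lmFit, which the methods of the study name, and eBayes was applied. The Benjamini–Hochberg method was applied across every tested probe, and 0.05 was the threshold. Each gene stands for its brightest tested probe.

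Named chains were the type I, III and VI chains and the type IV pair, chains called in a comparison with HFepa, and the 8 largest changes called in HFoleic vs. Ref; of each list of related genes, the 2 with the smallest p in HFoleic vs. Ref. Other genes were named after their values were seen. Members, marker lists and tests were chosen with earlier results of these data known. Gene names are those of the files, where an old symbol can remain. The steps were tested on simulated data. As alternatives, other scalings were run (the processed signal scaled to its 75th percentile, normexp with offset 50, median centring), the authors' log2 values, no filter, a filter on a whole group, marked spots kept, blocks for the slide or for the replicate number, weights per array, robust eBayes with a trend on intensity, the mean of all probes, only the groups compared, each array left out in turn, values within a slide and, added after seeing the data, 4 arrays left out. Plots used matplotlib 3.10.9.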

Additional observations from a re-analysis of the deposited data

Results flagged for a closer look

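In 8 of 120 groups of mice (40 chains in 3 groups) the highest or lowest mouse lay far from the rest by Dixon's test at the 95% level, where chance gives about 1 in 20, or 6. Among the Ref mice, mouse 7 was high for Col2a1 (log2 level 9.09), Col3a1 (14.9) and Col5a1 (12.2), and mouse 4 was high for Col20a1 (7.03). Among the HFoleic mice, mouse 1 was low for Col16a1 (11.3), mouse 5 was high for Col8a2 (8.50) and mouse 8 was high for Col19a1 (5.96). Among the HFepa mice, mouse 7 was high for Col7a1 (7.86). Without Ref mouse 7, 16 chains were higher in HFoleic vs. Ref and 8 in HFepa vs. Ref. The share of all tested genes called was not counted for that fit.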

How the results depend on the processing

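The count of 16 chains higher in HFoleic vs. Ref stayed between 13 and 17 over the alternatives, and no difference of the 12 named chains that was called changed its sign. Of 408 values of these chains in each comparison, 405 kept their side of the threshold in HFoleic vs. Ref, 352 in HFepa vs. Ref and 394 in HFepa vs. HFoleic. All 12 were called in HFoleic vs. Ref, and some were named for the size of that change. Outside the 12, the call in HFoleic vs. Ref was lost in 16 of 34 alternatives for Col6a4 and in 15 for Col9a2. It was lost in 2 each for Col5a3 and Col20a1 and in 0 for Col5a2 and Col14a1. Chains lower in HFoleic vs. Ref (2) numbered 1 with normexp, without the filter and with only the groups compared, 4 with median centring, 0 with the replicate block and 0 with the arrays with testis transcripts left out, and 1 to 3 with an array left out. Chains higher in HFepa vs. Ref (1) numbered 0 with the processed signal, without the filter, with the replicate block, with only the groups compared and with the arrays with testis transcripts left out. They numbered 3 with normexp, with the authors' log2 values and with the whole-group filter, 2 with the slide as a block and with the mean of all probes, 8 with array weights, and 0 to 10 with an array left out (10 without HFepa mouse 3, 8 without Ref mouse 7, 6 without HFoleic mouse 1 or HFepa mouse 8). Chains lower in HFepa vs. Ref (0) numbered 0 to 1 with an array left out. Chains lower in HFepa vs. HFoleic (0) numbered 2 with a block for the slide, 10 with array weights and 0 to 4 with an array left out, 4 without HFepa mouse 1 and 2 without HFoleic mouse 1. The cause of these changes was not tested. Shares of all tested genes called were not counted for the alternatives, so these numbers of chains cannot be set against them.

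Within slides the median of the basement membrane chains was -0.45, 0.43 and 0.39 on slides 1, 2 and 3 in HFoleic vs. Ref and -0.53, 0.30 and 0.32 in HFepa vs. Ref. The basement membrane median in HFoleic vs. Ref was 0.23 with the replicate block. The fibrillar median was 1.26 on slide 2 in HFoleic vs. Ref, 0.22 on slide 3 in HFepa vs. Ref and -0.78 on slide 3 in HFepa vs. HFoleic, and that of the other chains 0.26 on slide 2 in HFepa vs. Ref. Slide 2 held 1 HFoleic array. Mice with the same number in different groups did not deviate together (r from -0.587 to 0.559 over 16 pairs, 5 of them above 0.1), so the numbers were not taken as pairs. The number of arrays limits the precision, and chains near background (Col6a6, Col11a1, Col19a1, Col25a1) have little room to fall.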
